A study of Rattus with 4 samples.

Results

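Peaks in RNA from RBM25 immunoprecipitates that cross the edge between coding sequence and an intron are described here. They are annotated on the strand of the gene and are called boundary peaks. They were chosen by the deposited annotation of each peak, which gives the fraction of its length in each kind of sequence. A boundary peak holds both coding sequence and intron and no 5' UTR. IP replicate 1 had 750 of them among 2696 peaks and IP replicate 2 had 2581 among 8108, which makes 3331 of 10804 in all. The samples were 2 RBM25 immunoprecipitates (IP) and 2 inputs of H9C2 cells, a myoblast line from embryonic rat heart, and the inputs were not used here. Cells were irradiated at 400 mJ/cm2, and the RNA was cut with micrococcal nuclease. The labels name no genotype or agent for these 4 samples beyond IP or input, and whether the replicates were separate cultures is not stated in them.

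RBM25 is an RNA-binding protein with an RNA recognition motif and a stretch rich in arginine and glutamate. It associates with the U1 snRNP, the particle that recognises the 5' splice site at the end of an exon, and it can change which splice sites are used. RNA that spans an exon edge and the neighbouring intron is not yet spliced at that edge, whereas spliced mRNA joins one exon to the next. A boundary peak is known from the annotation of its bins alone. Single reads were not examined here, so its tags need not themselves cross the edge. Whether the RNA was spliced was not tested. Tags are the authors' signal for a peak. Every peak of both lists began and ended at a multiple of 50 nt, so the lists use 1 fixed grid of bins. Tags were whole numbers in all single-bin peaks, and in all longer peaks tags times the number of bins came out whole within 0.01, so the tags of a longer peak were read as a mean over its bins. Genome sequence of the build was not used here, so no peak sequence is shown.

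The marker genes fixed for the cells were read first. Of 14 myoblast markers, Tnnt2, Vim, Acta2, Tagln and Mef2c had any peak in replicate 2, and Tnnt2 alone did in replicate 1. The myogenic regulators Myod1 and Myog had no peak in either list, and peaks do not measure expression. Tnnt2, which encodes cardiac troponin T, carried 3 boundary peaks in replicate 1 and 2 in replicate 2. Of 15 markers of other cell types, the keratin gene Krt8 was the one with a peak.

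Boundary peaks made up 62.5% of the 1200 sense peaks of replicate 1 (95% Wilson interval 59.7 to 65.2) and 66.4% of the 3887 sense peaks of replicate 2 (64.9 to 67.9). Coding peaks away from introns followed with 203 peaks in replicate 1 and 673 in replicate 2. Peaks wholly inside introns numbered 48 and 197. Intervals treat the peaks as independent draws and reflect counting error alone. The share depends on how small an overlap counts: with coding and intron fractions of at least 0.1 each, it was 51.1% in replicate 1 and 56.0% in replicate 2. Most boundary peaks were single bins of 51 nt, 723 in replicate 1 and 2400 in replicate 2, and the longest had 201 and 251 nt. They were divided between the strands, with 378 on the plus and 372 on the minus strand in replicate 1, and 1270 and 1311 in replicate 2. A 3' UTR token was also present in 1 boundary peak of replicate 1 and 14 of replicate 2, and a noncoding exon in 1 of replicate 2.

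Tags of boundary peaks were close to the lowest level that was called. In replicate 1 the lowest boundary peak had 19 tags, the median 23 and the highest 174. In replicate 2 the lowest had 20 tags, the median 26 and the highest 155. The quartiles were 21 and 28 tags in replicate 1 and 22 and 35 in replicate 2. Coding peaks away from introns had medians of 23 and 25 tags, and peaks wholly inside introns 25.5 and 26, so the 3 classes overlapped widely. Within genes that held both kinds, the tallest boundary peak exceeded the tallest coding peak away from introns in 49 of 71 genes of replicate 1 and in 271 of 343 genes of replicate 2. Those genes held 151 boundary peaks against 106 coding ones in replicate 1, and 1147 against 501 in replicate 2, so the boundary class had more chances to hold the tallest.

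The coding fraction of a single bin is set by where the exon edge falls on the fixed grid, and the choice of members used the same annotation, so it is given as a description. It ran from 0.02 to 0.99 in each list, with a median of 0.565 in replicate 1 (quartiles 0.3 and 0.8) and 0.62 in replicate 2 (quartiles 0.36 and 0.82). More than 0.5 of the peak was coding in 431 peaks of replicate 1 (57.5%) and in 1590 of replicate 2 (61.6%). Coding fractions of at most 0.2 were found in 18.7% of the 51-nt boundary peaks of replicate 1 and 14.8% of those of replicate 2. Fractions above 0.8 were found in 22.5% and 24.1%. Median tags were 23 to 24 in every step of 0.2 in replicate 1 and 25 to 26 in replicate 2. Spearman's rho between coding fraction and tags was 0.05 across 750 peaks and 0.03 across 2581, a description over peaks that share genes and libraries.

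**Figure D1:**
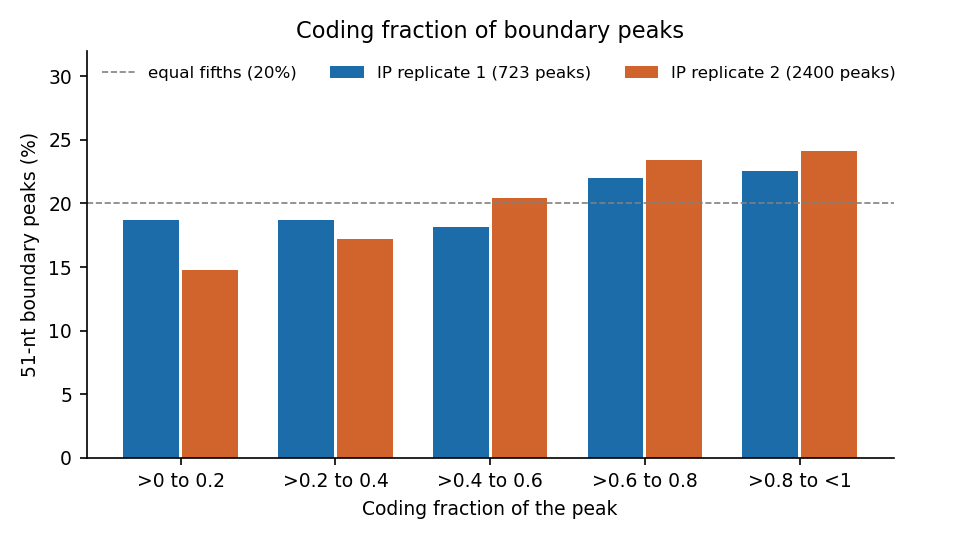
Bars show the percentage of 51-nt boundary peaks whose coding fraction falls in each step of 0.2, for IP replicate 1 (723 peaks) and IP replicate 2 (2400 peaks), and the dashed line marks equal shares. Both lists lean towards the coding side, from 18.7% and 14.8% at fractions of at most 0.2 to 22.5% and 24.1% above 0.8.

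In 55 cases the bin next to a boundary bin was wholly coding within the rounding of the deposited fractions. The 2 lists were joined for this, because neighbouring bins of 1 list are merged into 1 peak. In Smarcc2, for example, a replicate 1 peak at chromosome 7, 894600 to 894650 (mRatBN7.2, plus strand) had a coding fraction of 0.02, and the replicate 2 peak from 894600 to 894700 had 0.51, so the added bin was coding. In Hip1r, on the minus strand, the bin at chromosome 12, 32596300 to 32596350 had a coding fraction of 0.7 in replicate 1, and the replicate 2 peak that ran on to 32596400 had 0.85. On the plus strand the coding neighbour lay at the higher coordinate in 29 cases and at the lower in 4. On the minus strand it lay at the higher coordinate in 16 cases and at the lower in 6. The coding neighbour was thus mostly at the higher genome coordinate on both strands, 45 of 55 cases (81.8%) in 46 genes. How the authors placed tags in bins is not given in the sources used here, and its part in this count was not tested, so no side along the transcript is read from it. No neighbouring bin was wholly intronic. With called bins alone, without those worked out from longer peaks, 11 of 13 coding neighbours lay at the higher coordinate. These cases are few against 3331 boundary peaks, and they carry no test.

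Boundary peaks recurred between the lists more often than coding peaks away from introns. Sense peaks that were neither boundary, coding nor intronic peaks were not set against them. High recurrence is therefore not shown to be particular to boundary peaks. In replicate 1, 547 of 750 boundary peaks met a same-strand peak of replicate 2 (72.9%, 69.6 to 76.0), against 94 of 203 coding peaks away from introns (46.3%, 39.6 to 53.2). All peaks of replicate 1 recurred in 61.0% and all its sense peaks in 64.6%. The difference of 26.6 percentage points passed a two-sided Fisher exact test over peaks (adjusted p = 2.2e-11 over 8 class comparisons). In replicate 2, 550 of 2581 boundary peaks (21.3%, 19.8 to 22.9) overlapped a replicate 1 peak, against 90 of 673 coding peaks away from introns (13.4%, 11.0 to 16.2). All peaks of replicate 2 recurred in 20.3% and its sense peaks in 19.9%, and the difference of 7.94 points passed (Fisher exact adjusted p = 4.1e-06). Recurrence in the 2 lists rests on the same overlaps seen from each side, among them 541 pairs of boundary peaks. The 2 recurrence tests are therefore not independent, and neither replicates the other. The replicate 2 difference was 1.03 points among peaks with no antisense peak in the same bins (14.5% against 13.5%, Fisher exact adjusted p = 0.98) and 9.93 points among peaks with one (23.2% against 13.3%, adjusted p = 8.0e-06). In replicate 1 the difference held in each of these sets, with 20.1 and 23.9 points. This split was chosen after seeing the data. Peaks of 1 gene share their transcript, and the tests set classes of peaks within a list against each other, not conditions. With only the tallest peak of each gene and class, recurrence differed by 20.8 points in replicate 1 (Fisher exact adjusted p = 2.0e-05). In replicate 2 it differed by 6.98 points (Fisher exact adjusted p = 0.0012).

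Against peaks wholly inside introns the differences were smaller and less firm. In replicate 1, 72.9% of boundary peaks recurred against 29 of 48 intronic peaks (60.4%, 46.3 to 73.0), which did not pass (Fisher exact adjusted p = 0.078). In replicate 2, 21.3% recurred against 28 of 197 (14.2%, 10.0 to 19.8), which passed (Fisher exact adjusted p = 0.024). That call was lost with the 50% of each list that has the smaller p-values, with peaks at or above the median tags and with the tallest peak of each gene alone, where the adjusted p was 0.55, 0.16 and 0.15. The replicate 1 difference of 12.5 points became 27.2 points and passed at or above the median tags (Fisher exact adjusted p = 0.0018). Among peaks with an antisense partner it was 20.0 points and passed (Fisher exact adjusted p = 0.040). Among those with none it was 1.44 points (61.4% against 60%) and did not pass. The split by antisense partner was chosen after seeing the data.

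A peak on the opposite strand often shared the bins of a boundary peak. This was so for 444 of 750 boundary peaks of replicate 1 (59.2%, 55.6 to 62.7), against 65 of 203 coding peaks away from introns (26.0% to 38.7%). In replicate 2 it was so for 2009 of 2581 (77.8%, 76.2 to 79.4), against 443 of 673 (65.8%, 62.2 to 69.3). Over all sense peaks the share was 50.5% in replicate 1 and 73.5% in replicate 2. Both differences passed the two-sided Fisher exact test (adjusted p = 2.2e-11 in replicate 1 and 1.0e-09 in replicate 2). Peaks of 1 gene were counted as separate units in these tests. With only the tallest peak of each gene and class, the differences were 28.5 and 10.7 points (Fisher exact adjusted p = 1.2e-08 and 2.0e-05). Against intronic peaks, of which 47.9% in replicate 1 and 62.9% in replicate 2 had such a partner, the difference did not pass in replicate 1 (Fisher exact adjusted p = 0.13) and passed in replicate 2 (adjusted p = 1.0e-05). The replicate 2 call against intronic peaks was lost in the 50% of the list with the smaller p-values (Fisher exact adjusted p = 0.23) and among peaks at or above the median tags (adjusted p = 0.074). In single-bin pairs the strands carried nearly the same tags: over 417 pairs of replicate 1 the median was 25 sense tags and 27 antisense tags, and over 1823 pairs of replicate 2 it was 27 and 29. The antisense strand had more tags in 238 of the 417 pairs and in 1079 of the 1823. The source of the antisense signal was not tested, nor was its bearing on the strand given to boundary peaks.

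**Figure D2:**
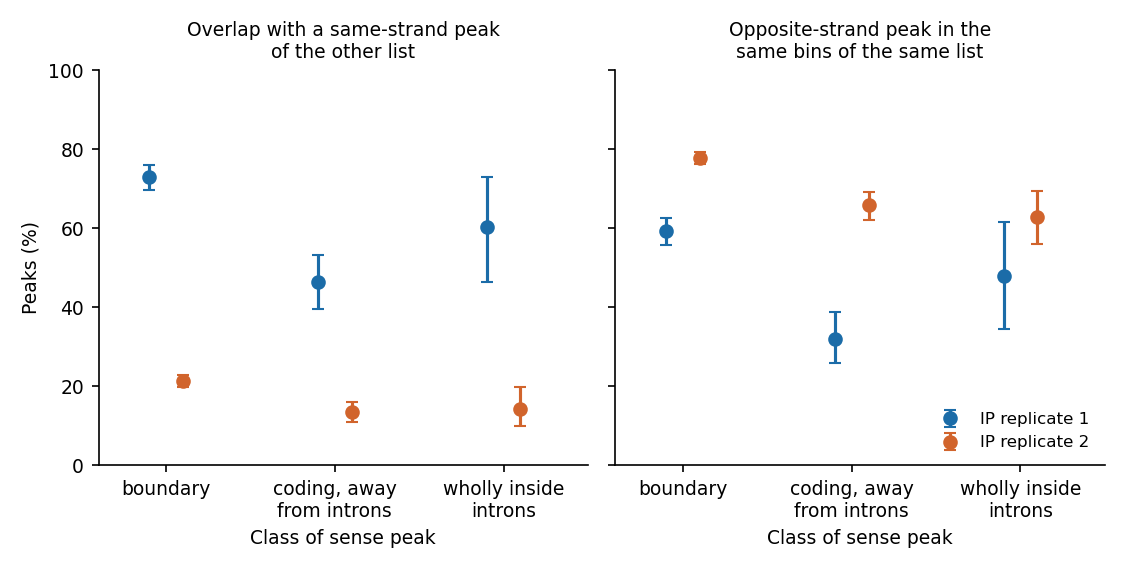
Points show the percentage of peaks in each class of sense peak (boundary, coding away from introns, wholly inside introns) that overlap a same-strand peak of the other list (left) or have an opposite-strand peak in the same bins (right), with 95% Wilson intervals as bars. Among the classes drawn, boundary peaks stand highest in each panel for each list. They reach 72.9% and 21.3% on the left and 59.2% and 77.8% on the right. Sense peaks outside these classes are not drawn, so high values are not shown to be particular to boundary peaks.

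Recurrence went with tags in each list. Boundary peaks of replicate 1 with 19 to 21 tags recurred in 62.7% (56.4 to 68.5), and those with 28.5 to 174 tags in 84.2% (78.1 to 88.8). In replicate 2, peaks with 20 to 22 tags recurred in 8.84% (6.96 to 11.2) and those with 35.5 to 155 tags in 35.5% (31.8 to 39.3). The share with an antisense partner was also higher at high tags, 75.7% at 28.5 to 174 tags of replicate 1 against 40.7% at 19 to 21. In replicate 2 it was 60.8% at 20 to 22 tags, 87.6% at 26.25 to 35 and 84.3% at 35.5 to 155, so it was not highest where recurrence was. The separate parts of tags and antisense partners in the class differences were looked at only through the settings given here. Of the 203 boundary peaks of replicate 1 that did not recur, 149 lay in a gene with a boundary peak elsewhere in replicate 2, 13 had a replicate 2 sense peak in the adjoining bin, and 21 lay in a gene with no replicate 2 peak. Of the 2031 such peaks of replicate 2, 749 lay in a gene with no replicate 1 peak.

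There were 541 overlapping pairs, made of 541 replicate 1 peaks (72.1% of its boundary peaks) and 540 replicate 2 peaks (20.9%), and 490 pairs had the same start and end, as overlapping single-bin peaks must on a fixed grid. The other 6 recurring replicate 1 boundary peaks overlapped replicate 2 peaks of another class. Replicate 2 had more tags in 420 pairs, replicate 1 in 94, and 27 were equal. The median ratio of replicate 2 over replicate 1 was 1.29 (quartiles 1.05 and 1.57). Depth is unknown and no scaling of tags for it is stated, so this ratio is not a change in binding. Across pairs Spearman's rho was 0.43 and Pearson's r 0.52, given as a description over 541 pairs that share libraries and genes. An antisense partner was present in both lists in 323 pairs and in neither in 50.

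**Figure D3:**
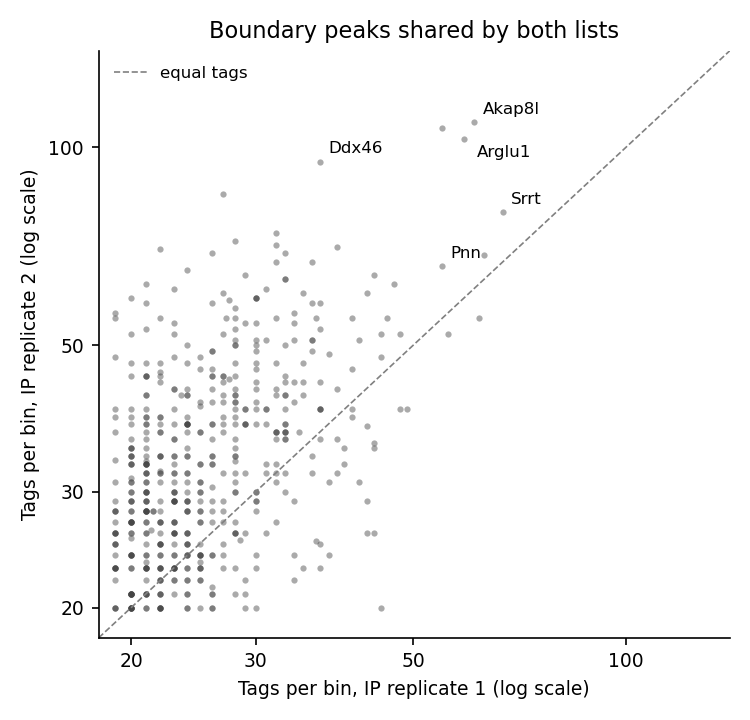
Each point is 1 of the 541 pairs of overlapping boundary peaks, with tags per bin in IP replicate 1 across and in IP replicate 2 upwards, both on log axes, and the dashed line marks equal tags. Most points lie above the line (420 pairs), and Akap8l, Arglu1 and Srrt lie at the upper right.

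The tallest shared boundary peaks were ranked by the mean of their ranks in both lists, and the leading 10 genes are given here. Akap8l, which encodes a nuclear A-kinase anchoring protein, led with 61 tags in replicate 1 and 109 in replicate 2 at chromosome 7, 11347850 to 11347900 (minus strand), where 0.84 of the bin was coding. A second Akap8l bin, 11347700 to 11347750, had 55 and 107 tags and a coding fraction of 0.72. Both bins stood far above the medians of their lists. The bin of Arglu1, a splicing and transcription regulator, was mostly intron, with a coding fraction of 0.18, and had 59 and 103 tags at chromosome 16, 80759600 to 80759650. A further Arglu1 bin with the same coding fraction, at 80776450 to 80776500, had 32 and 67 tags.

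Srrt, whose product ARS2 works with the nuclear cap-binding complex, followed. Its peak at chromosome 12, 19400700 to 19400800 (plus strand) had 67 tags in replicate 1 with a coding fraction of 0.57, and the replicate 2 peak, 1 bin longer, had 79.7 tags. The helicase gene Ddx46 had 95 tags in replicate 2 at chromosome 17, 8977600 to 8977650, and the replicate 1 peak there ran on to 8977700 with a mean of 37 tags over its bins. Pnn, whose product pinin is a splicing-associated nuclear protein, had 55 and 66 tags at chromosome 6, 76758900 to 76758950, with a coding fraction of 0.78. The rest of the 10 were Supt5h, a transcription elongation factor gene, with 39 and 70.5 tags at its tallest shared peak, the formin gene Fhod1 with 44 and 64, the kinase gene Taok2 with 47 and 62, Safb2 with 36 and 67, and Setd5 with 43 and 60. In each of these 10 genes the peaks named here had more tags in replicate 2.

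Boundary peaks were spread over many genes. Replicate 1 had them in 445 genes and replicate 2 in 1137, and 396 genes had one in each list, 89.0% of the first set and 34.8% of the second. At least 1 boundary peak was found in 67.7% of the genes with a sense peak in replicate 1 and in 74.4% of those in replicate 2. A boundary peak shared by position was found in 331 genes, 56.9% of the 582 genes with a sense peak in both lists. Of the genes with a boundary peak, 282 in replicate 1 (63.4%) and 576 in replicate 2 (50.7%) had just 1. Genes with at least 3 numbered 67 and 306, and they held 36.8% and 57.9% of the boundary peaks. In 59 genes there were at least 3 in both lists. That count was 21 in the 50% of each list with the smaller p-values and 4 without peaks that have an antisense partner. Neighbouring boundary peaks of a gene were separated by a median of 1950 nt in replicate 1 and 1550 nt in replicate 2, and 17.0% and 17.3% of the gaps were at most 300 nt.

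Col16a1, which encodes a fibril-associated collagen, had the most boundary peaks in each list, 13 in replicate 1 and 22 in replicate 2, and 11 of them shared. They made up 13 of its 14 sense peaks in replicate 1 and 22 of 23 in replicate 2. All shared ones lay on chromosome 5 between 142400550 and 142439700 on the plus strand. Their tags ran from 20 to 32 in replicate 1 and from 26 to 42 in replicate 2, and replicate 2 was higher in 10 of the 11. Their coding fractions ran from 0.04 to 0.94. The tallest Col16a1 boundary peaks were in replicate 2 alone, with 69 tags at 142422150 to 142422200 and 63 tags at 142422000 to 142422050. In replicate 1 a bin of 34 tags at 142402350 to 142402400 was not shared. An antisense peak shared the bins of 6 of the 13 boundary peaks in replicate 1 and of 14 of the 22 in replicate 2.

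Among the other genes with the most shared boundary peaks, all 8 Srrt boundary peaks of replicate 1 recurred, and replicate 2 had 9. The shared Srrt peaks carried 20 to 67 tags in replicate 1 and 24 to 79.7 in replicate 2. Nexn encodes nexilin, an actin-binding protein of the sarcomeric Z-disc. All 7 of its replicate 1 boundary peaks recurred, with 19 to 33 tags in replicate 1 and 24 to 53 in replicate 2, and each was higher in replicate 2. Replicate 2 had 3 more, which made 10. Nexn had no coding peak away from introns in either list.

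Hip1r, an actin- and clathrin-linked gene, had 6 of them in replicate 1 and 11 in replicate 2, with 6 shared. The tallest shared one in replicate 1 had 49 tags there and 40 in replicate 2, whereas the bin at 32593000 to 32593050 on chromosome 12 had 23 and 61. Replicate tags of single Hip1r bins therefore differed in both directions. Among genes of chromatin and transcription, Smarcc2, a subunit gene of the SWI/SNF remodeller, had 6 and 9 such peaks with 6 shared. Srcap, the gene of another remodeller, had 6 and 10 with 6 shared. Clasrp, which encodes an SR-like protein that binds a CLK kinase, had 6 and 5 with 5 shared, and so had fewer in replicate 2.

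**Figure D4:**
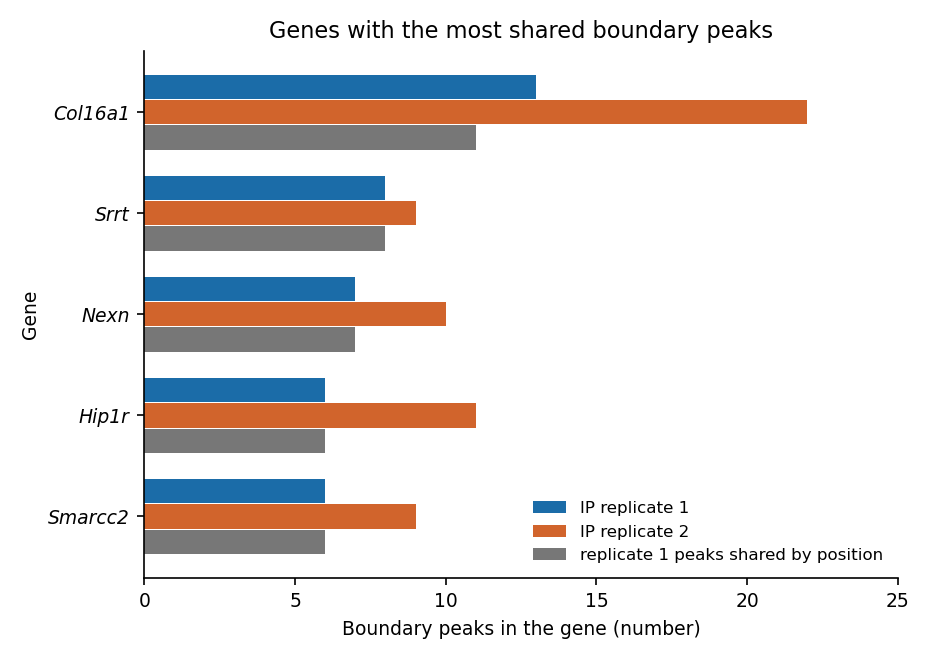
Bars give the number of boundary peaks in IP replicate 1, in IP replicate 2 and shared by position, for the 5 leading genes by shared ones. Col16a1 stands apart with 13, 22 and 11, and each of the 5 has more in replicate 2 than in replicate 1.

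On the transcript of Rbm25 itself lay 6 boundary peaks in replicate 1, which were all of its sense peaks there, and 7 of 10 in replicate 2. Of these, 5 on the plus strand of chromosome 6 were shared. At 103301200 to 103301250 both lists had 30 tags, and at 103308850 to 103308900 replicate 1 had 25 and replicate 2 had 23. At 103305000 to 103305050 they had 28 and 51, and at 103311250 to 103311300 they had 32 and 74. The remaining one, from 103309700, had 33 tags in replicate 1 and 36 over a longer peak in replicate 2. Some bins were thus alike in the lists and others differed by up to 2.31 times, and each of the shared peaks had an antisense partner in both lists.

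Genes of the splicing machinery were then followed by role, beside the background of 67.7% and 74.4% of genes with a sense peak. Of 130 genes in the 7 lists of splicing factors and RNA helicases, 42 had a sense peak in replicate 1 and 30 of these (71.4%) had a boundary peak. In replicate 2, 70 had a sense peak and 61 of these (87.1%) a boundary peak. A shared boundary peak was found in 27 of the 39 genes with a sense peak in both lists (69.2%), beside 56.9% over all genes. The median number per gene was 2 in each list, against 1 over all genes. The 28 genes with a boundary peak in both lists became 8 without peaks that have an antisense partner. Over all genes, 396 became 119. These figures are descriptions and were not tested, and the lists were chosen with earlier results of these data known.

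Among 20 genes of the U1 snRNP and LUC7-like partners, 3 of the 4 with a sense peak in replicate 1 had a boundary peak. In replicate 2, all 6 with a sense peak had one. The shares over all genes with a sense peak were 67.7% in replicate 1 and 74.4% in replicate 2. The 3 genes of this list with a shared one were Rbm25, Luc7l2 and Luc7l3. Luc7l2 encodes a U1 snRNP-associated protein that acts at 5' splice sites. All of its 5 boundary peaks of replicate 1 were shared, and replicate 2 had 6. At chromosome 4, 67342200 to 67342250 (plus strand), it had 30 tags in replicate 1 and 59 in replicate 2. At 67346650 to 67346700 the order was the other way, with 45 tags in replicate 1 and 20 in replicate 2. Luc7l3 had 3 and 4 boundary peaks with 3 shared, and its tallest shared one, on chromosome 10 from 79246450, had a mean of 32 tags over a longer peak in replicate 1 and 71 tags in 1 bin in replicate 2. Snrnp70, which encodes a core U1 protein, had one of the tallest boundary peaks of replicate 2 and none shared; its value was picked out after it was seen, 114 tags at chromosome 1, 95872950 to 95873000.

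SR proteins bind exons and promote splicing, and 2 of the 7 SR protein genes with a sense peak in replicate 1 had a boundary peak, as did 5 of 8 in replicate 2. These shares lay below the 67.7% and 74.4% over all genes. Srsf11 and Srsf6 had shared ones. Srsf11 had 4 in each list, all shared, with 20 to 39 tags in replicate 1 and 43 to 52 in replicate 2. Every one of its replicate 2 values exceeded every replicate 1 value. Srsf6 had 22 and 20 tags at its 1 shared bin, where the coding fraction was 0.2. Among 20 SR-related genes of nuclear speckles, all 8 with a sense peak in replicate 1 had a boundary peak. Each of these 8 had a shared one. In replicate 2, 13 of the 16 with a sense peak had a boundary peak. Srrm2, a large speckle protein gene, had 3 shared peaks of 21.3 to 36 tags in replicate 1 and 26.2 to 58 in replicate 2.

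Of 27 hnRNP genes, 12 had a sense peak in replicate 1 and 6 of these a boundary peak. In replicate 2, all 15 with a sense peak had a boundary peak. Over all genes with a sense peak the shares were 67.7% and 74.4%. The hnRNP boundary peaks numbered 8 in replicate 1 and 50 in replicate 2. Hnrnpm had 2 in replicate 1 and 7 in replicate 2, with 2 shared, at 20 to 21 and 27 to 29 tags. Hnrnpa2b1, Hnrnph1 and Hnrnpa3 each had 1 in replicate 1, at 19, 23 and 21 tags, and 6, 6 and 4 in replicate 2. Of 19 genes that act at the branch point and 3' splice site, 3 had a sense peak in replicate 1 and 9 in replicate 2. All of these had a boundary peak in the same list. Sf1, which encodes the branch point binding protein, had 3 in each list, all shared, on chromosome 1, at 23, 26 and 27 tags in replicate 1 and 36, 36 and 45 in replicate 2. Sf3b2 and U2af2 had 1 shared bin each, with 28 and 50 tags and with 22 and 34 tags.

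Among 22 helicase genes, all 6 with a sense peak in replicate 1 had a boundary peak. In replicate 2, 11 of the 13 with a sense peak did, beside 67.7% and 74.4% over all genes with a sense peak. A shared one was found in 5 helicase genes, beside 56.9% of all genes with a sense peak in both lists. Ddx46 had 4 shared peaks, with 28 to 46 tags in replicate 1 and 37 to 95 in replicate 2. Ddx39b had 36 and 51 tags at its shared bin, Ddx17 37 and 36, and Ddx23 22 and 21, so the last 2 were nearly alike in the lists. Of 10 CLK and SRPK kinase genes, whose products phosphorylate SR proteins, Srpk2 had the 1 shared bin, with 37 tags in replicate 1 and 44 in replicate 2.

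Outside splicing, 15 of 26 cytoskeleton and contractile genes had a boundary peak in replicate 1 and 19 in replicate 2, with 40 and 129 peaks and 12 genes with a shared one. Of those with a sense peak, 15 of 16 in replicate 1 and 19 of 19 in replicate 2 had a boundary peak. Over all genes with a sense peak the shares were 67.7% and 74.4%. A shared boundary peak was found in 56.9% of all genes with a sense peak in both lists. High shares of genes with a boundary peak were not particular to this list. All matrix glycoprotein genes with a sense peak had one too, 5 in replicate 1 and 12 in replicate 2. Myh10, a nonmuscle myosin gene, had 4 in replicate 1 and 12 in replicate 2, and its 4 shared ones had 20 to 33 and 23.5 to 45 tags. The alpha-actinin gene Actn1 had 7 and 6, with 4 shared. Its bin at chromosome 6, 99009700 to 99009750 had 22 and 47 tags, and the other 3 shared bins differed by at most 2 tags. The cytoskeletal linker gene Macf1 had 5 and 15 boundary peaks with 3 shared, and the spectrin gene Sptbn1 3 and 13 with 2 shared.

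Among 19 collagen genes, 7 of the 8 with a sense peak in replicate 1 had a boundary peak, as did 7 of 9 in replicate 2. Over all genes with a sense peak the shares were 67.7% and 74.4%. A shared one was found in 5 collagen genes, beside 56.9% of all genes with a sense peak in both lists. Col4a2 had 2 shared bins, with 19 to 21 tags in replicate 1 and 25 to 27 in replicate 2. Col5a2 had 2, with 20 and 30 tags as the lowest and highest in replicate 1 and 27 and 29 in replicate 2, and Col3a1 had 1, with 25 and 20 tags. Of 24 matrix glycoprotein genes, all 5 with a sense peak in replicate 1 and all 12 in replicate 2 had a boundary peak. These boundary peaks numbered 7 in replicate 1 and 44 in replicate 2, with 3 shared. The perlecan gene Hspg2 had 2 and 11, and 22 and 34 tags at its shared bin. The laminin gene Lamc1 had 1 and 6 boundary peaks, and 34 and 51 tags where they met. Thbs1, a thrombospondin gene, had 25 and 31.

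Of 26 cytosolic ribosomal protein genes, 9 had a sense peak in replicate 1 and 3 of these a boundary peak. In replicate 2, 17 had a sense peak and 11 a boundary peak, beside 67.7% and 74.4% over all genes. Rpl35 had 28 and 38 tags at its shared boundary bin and Rpl24 21 and 38. Among 30 immune and inflammatory genes, Tgfbr2 had a boundary peak in replicate 1, with 22 tags. In replicate 2, all 6 genes with a sense peak had one, among them Stat3, Irf3, Il6st, Hmgb1 and Tnfrsf1a. Just 2 genes of the list had a sense peak in replicate 1, Tgfbr2 and Hmgb1, and Tgfbr2 had none in replicate 2, so little overlap was possible and none was found. The highest of these peaks, in Hmgb1, had 62 tags, and Stat3 and Il6st had 1 peak of 24 tags each.

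Coro6, Csf1, Slc38a9, Bin1 and Bcl2l1 were followed by name. In Coro6, a coronin gene, the boundary bin at chromosome 10, 62318550 to 62318600 had 29 and 38 tags and was the 1 sense peak of replicate 1, and replicate 2 had 2 more boundary peaks, with 24 tags at 62318050 to 62318100 and 21 tags at 62315600 to 62315650. Csf1 had no sense peak, and Slc38a9 had no peak. Bin1 showed boundary peaks of 22 and 26 tags in replicate 2 alone, on chromosome 18 at 24063600 to 24063650 and 24066650 to 24066700. Bcl2l1 had no boundary peak.

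Some genes held boundary peaks in just 1 list. In replicate 1 these were led by Fam114a1 with 3 peaks of 19 to 23 tags, Ppp1r9b, the gene of the scaffold protein spinophilin, with 2 of 25 to 37, and the corepressor gene Ncor1 with 2 of 21 to 26. In replicate 2 they were led by the tensin gene Tns1 with 8 peaks of 22 to 43 tags, the chromatin remodeller gene Chd4 with 7 of 21 to 67, and Septin9 with 7 of 21 to 31. The replicate 2 genes had more peaks, as did the whole list. Col1a2, a fibrillar collagen gene, is named after its value was seen: its boundary bin at chromosome 4, 32576800 to 32576850 was the tallest of replicate 1, with 174 tags and 132 on the antisense strand, and was not shared. The tallest boundary peak of replicate 2, in Ccdc9, had 155 tags, was not shared either and was also picked out after its value was seen.

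Other genes had many sense peaks and no boundary peak. Ahnak, which encodes a giant scaffold protein largely from 1 exon, had 9 sense peaks in replicate 1 and 19 in replicate 2, and all were wholly coding. Huwe1, a ubiquitin ligase gene, had 2 and 12 sense peaks, and 2 and 11 of these held noncoding exon and intron. Ccdc9b had 3 and 7, of which 2 and 5 held noncoding exon and intron. Peaks of Huwe1 and Ccdc9b thus crossed exon edges that the deposited annotation lists as noncoding, and they fall outside the boundary class for that reason.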

How the data were processed

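The deposited peak lists, 1 per IP sample by their names, give position, strand, tags, p-value, length, annotation and gene of each peak. Per the submitters' processing notes, the tools and builds include HISAT2 and mRatBN7.2. How peaks were called, filtered or set against input is not given in the sources used here. Each peak's tags are a deposited signal, known by column name alone. From the values, not the headers, they were read as whole in 51-nt peaks and a mean over bins in longer ones; no scaling for depth is stated. The deposited p-value of a peak was used as the authors' value, to take the 50% of a list with the smaller p-values.

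Boundary peaks hold CDS and intron tokens and no 5' UTR token. Coding peaks away from introns hold CDS and neither of the others, and intronic peaks hold intron alone. A peak counted as shared if a peak of the other list overlapped it on its strand. Two-sided Fisher exact tests compared the classes, with Benjamini-Hochberg adjustment over 8 comparisons; the threshold was an adjusted p of 0.05. Simulations over 2696 peaks covered 1 comparison, recurrence of boundary against coding peaks in replicate 1, at an unadjusted p of 0.05. The test called 40 of 40 with a planted difference of 25 points, and 2 of 40 with none planted. Each simulated peak was drawn independently, so these counts do not cover peaks that share a gene.

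Members, 16 gene lists (291 entries) and tests were chosen with earlier results of these data known. Named genes are the 10 with the most shared boundary peaks, the 10 with the best mean tag rank of a shared one, up to 4 members per list, the 3 leading genes with boundary peaks in 1 list alone, the 3 with most sense peaks and no boundary peak, Rbm25, study genes and known targets. Some genes of that rule are left unreported here. Other genes were named as few members of a count or as stated. Of 1186 genes with a boundary peak, 1166 matched a symbol of a RefSeq table (assembly GRCr8, names alone), 10 a synonym and 10 neither; 14 unnamed identifiers were passed over. Alternatives covered p-value, length, fractions, tags, overlap, the tallest peak per gene, UTR, antisense partners and each replicate left out. The scripts ran in Python 3.11.15 with scipy 1.17.1, numpy 2.4.6 and pandas 2.3.3, and figures were drawn in matplotlib 3.10.9.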

Additional observations from a re-analysis of the deposited data

How the results depend on the processing

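Both recurrence and antisense partners of boundary peaks exceeded those of coding peaks away from introns in both lists under each change of p-value, length, fraction, tags or tallest peak, by 20.8 to 33.6 points and at least 21.0 points in replicate 1 and by 6.98 to 11.0 and 10.7 to 15.0 points in replicate 2. Among peaks with no antisense partner, a setting chosen after seeing the data, the replicate 2 recurrence difference was 1.03 points and not called, and against intronic peaks it was 3.55 points and not called; among peaks with a partner, the difference from intronic peaks was 7.12 points and not called. Against intronic peaks, replicate 2 recurrence was also not called in the 50% with the smaller p-values (3.48 points), at or above the median tags (7.17) or with the tallest peak per gene (5.27), and its antisense share was not called in that set (6.95) or at those tags (7.16). Replicate 1 recurrence against intronic peaks became called at those tags (27.2 points) and among peaks with a partner (20.0). Among replicate 1 peaks with no partner that difference was 1.44 points and not called. The recurrence values of both lists rest on the same overlaps and are not independent.

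With the 50% of each list that has the smaller p-values, there were 363 boundary peaks in replicate 1 and 1346 in replicate 2, 231 shared ones, 206 genes in both lists and a boundary share of 68.6% in replicate 2. Fractions of at least 0.1 gave shares of 51.1% and 56.0% (mean 53.6%), and including 5' UTR peaks gave 68.1% in replicate 2. Without peaks that have an antisense partner, 306 and 572 boundary peaks remained, with shares of 51.5% and 55.5% (mean 53.5%), 50 shared peaks and 119 genes in both lists; genes with at least 3 boundary peaks numbered 12 and 35, against 25 and 147 with the smaller p-values. Asking for an overlap of 50% of the shorter peak left each tested value as it was, which on the fixed grid shows no stability. Leaving out a replicate gave 445 to 1137 genes with a boundary peak and a share of 62.5% to 66.4%; recurrence has no value without either list. No paired analysis was possible because the inputs were not analysed here and the lists of the 2 IPs are 1 per replicate number. Depth is unknown, so a peak missing from a list may lie below its lowest called tags.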
